A study of Mus musculus with 7 samples.

Results

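The transcripts described here are 9 genes that mark cells of the B lineage, from progenitors committed to it to antibody-secreting plasma cells: Jchain, Mzb1, Fcmr, Ms4a1, Cd79a, Cd79b, Ebf1, Pax5 and Vpreb1. They were taken by symbol from the 24421 gene symbols of a bulk RNA-seq count table. The genes had been picked with earlier results of the same libraries known, including high values in the Ddx41+/- library numbered 7, so their levels and differences are a description and carry no independent evidence. That library is shown apart throughout.

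RNA was from LSK cells (Lin-Sca1+Kit+), the bone marrow fraction in which hematopoietic stem cells and multipotent progenitors lie. The cells came from lethally irradiated BoyJ mice that had received marrow carrying RosaCreERT2, a Cre recombinase that tamoxifen activates and that is expressed from a broadly active locus. In 4 libraries (replicates 1 to 4) the donor marrow was Ddx41+/+, and in 3 (replicates 6 to 8) 1 floxed allele of Ddx41, a DEAD-box RNA helicase gene, had been deleted to give Ddx41+/-. Mice of both genotypes were given tamoxifen, each library was made from the LSK cells of 1 mouse at 8 weeks after transplant, and the age of the mice is not given in the sources used here. A Ddx41+/- library numbered 5 is not analysed here. The gate left out cells stained with a biotinylated panel of lineage antibodies, a kind of panel that by general knowledge covers B220, which B cells carry and most plasma cells have lost. The sources used here do not state for these sorts whether recipient cells were gated out, and CreERT2 acts in every donor-derived cell type, B cells included.

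B cells arise from lymphoid progenitors in which the transcription factors EBF1 and then PAX5 switch on B-lineage genes. VpreB pairs with lambda5 to form the surrogate light chain of the pre-B cell receptor, and CD79A and CD79B (Ig-alpha and Ig-beta) carry the signal of that receptor and of the mature one. Mature B cells display CD20, encoded by Ms4a1, and the IgM receptor encoded by Fcmr. Plasma cells, which lose many of these surface proteins, secrete antibody joined by the J chain (Jchain) with the help of the endoplasmic reticulum chaperone MZB1. The LSK gate holds cells that are upstream of all of these stages, although lymphoid-primed progenitors within it already transcribe some early lymphoid genes.

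In the GENCODE M21 annotation of GRCm38, Jchain lies at chr5:88519809-88527891, Fcmr at chr1:130865669-130880791, Ms4a1 at chr19:11249675-11266241, Cd79a at chr7:24897381-24902197 and Cd79b at chr11:106311341-106314762. Ebf1 is at chr11:44617317-45008091, Pax5 at chr4:44524757-44710487 and Vpreb1 at chr16:16868403-16870843. The counts are sums over whole genes, and the use of strand in counting is not stated, so reads in exons that overlap a neighbour could be assigned to either gene. Such an overlap exists for Mzb1 (with Spata24), Pax5 (with 5730488B01Rik and Gm12462) and Vpreb1 (with Top3b). Over 759 aligned bases, the transcripts Vpreb1-201 and Vpreb2-201 were 97.4% identical, so the division of reads between Vpreb1 and Vpreb2 is uncertain. Of 12 immunoglobulin constant-region genes looked for, 0 were among the gene symbols of the count table, so they could not be analysed.

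RefSeq promoter entries (GRCm38.p6) were matched for 6 of the 9 genes. The sequence before the annotated gene is shown for 4 of them, since 2 (Jchain and Fcmr) were set far apart in Ddx41+/- replicate 7 while 2 (Cd79a and Pax5) were not set apart in this way. Capitals mark a CAGGTG E-box, the letters bound by E proteins such as the product of Tcf3, and each sequence reads 5′ to 3′ toward the gene.
Jchain, chr5:88527898-88528147 (-): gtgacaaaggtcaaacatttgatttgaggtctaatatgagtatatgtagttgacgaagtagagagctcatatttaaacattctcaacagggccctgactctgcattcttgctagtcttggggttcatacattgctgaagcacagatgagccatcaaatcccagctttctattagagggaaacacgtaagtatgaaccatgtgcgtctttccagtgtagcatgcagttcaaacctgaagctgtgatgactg
Fcmr, chr1:130865527-130865668 (+): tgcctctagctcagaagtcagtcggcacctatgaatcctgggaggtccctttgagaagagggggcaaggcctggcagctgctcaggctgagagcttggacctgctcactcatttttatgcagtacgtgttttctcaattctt
Cd79a, chr7:24897247-24897380 (+): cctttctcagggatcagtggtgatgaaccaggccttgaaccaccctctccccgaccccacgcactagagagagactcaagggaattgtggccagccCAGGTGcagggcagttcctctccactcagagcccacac
Pax5, chr4:44710695-44710944 (-): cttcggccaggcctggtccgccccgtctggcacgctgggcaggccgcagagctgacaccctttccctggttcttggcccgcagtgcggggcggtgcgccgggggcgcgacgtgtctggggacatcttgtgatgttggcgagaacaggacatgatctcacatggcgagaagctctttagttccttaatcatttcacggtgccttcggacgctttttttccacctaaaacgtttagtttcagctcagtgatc
In the 250 bases upstream of the RefSeq starts of the 6 genes, CAGGTG was searched for on both strands and found on the sense strand in Cd79a, at -154 to -149, and in Vpreb1, at -88 to -83. Of 32851 promoter windows of that length, 17.2% held these letters. The EBF1 palindrome, present in 0.779% of windows, and the octamer ATTTGCAT, present in 1.6%, were not found in any of the 6 genes, and neither overlaps the E-box. An absent match says only that these letters are not in that window.

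Total counts ranged from 32234499 to 43751290 per library. The genotype labels were checked with Ddx41, which had 97.9 ± 6.43 CPM (read counts relative to the scaled library total, SD, n = 4) in Ddx41+/+ libraries. In Ddx41+/- libraries it had 67.3 ± 2.62 CPM (SD, n = 3), a log2 fold change of -0.54 (SE 0.071, adjusted p = 0.0052, edgeR quasi-likelihood test with Benjamini-Hochberg adjustment). Replicate 7 held 64.4 CPM of Ddx41, the lowest value of the 7. Kit and Ly6a, which encode the c-Kit and Sca-1 proteins of the gate, were at 456 and 30.5 CPM in replicate 7 and at 427 to 505 and 13.3 to 23.6 CPM in the other 6 libraries. Of 12 genes listed for LSK identity, 1 (Ly6a) was highest in replicate 7, as were 19.3% of all genes tested. Flt3, Procr, Hlf and Mecom, 4 of the 12 (33.3%), were lowest there, as were 21.9% of all genes. The list summed to 1782 CPM in replicate 7, 1923 and 1774 CPM in replicates 6 and 8 and 1955 to 2122 CPM in Ddx41+/+ libraries. The hemoglobin genes of the late erythroid list were at 0 in all 7 libraries.

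Jchain had the highest mean CPM of the 9 transcripts in both genotypes and the widest range of CPM between mice, although Cd79b was above it in Ddx41+/- replicate 6. It was at 35.3, 128, 69.1 and 56.2 CPM in Ddx41+/+ replicates 1 to 4 and at 26.0, 346 and 40.9 CPM in Ddx41+/- replicates 6 to 8. Replicate 7 was 2.70-fold above the next library, Ddx41+/+ replicate 2, and 7.13-fold above the median of the other 6, while replicate 6 lay below all Ddx41+/+ libraries and replicate 8 near the lowest of them. The group mean was 72.2 ± 39.8 CPM (SD, n = 4) in Ddx41+/+, where replicate 2 was the highest. In Ddx41+/- it was 138 ± 181 CPM (SD, n = 3), a mean set by replicate 7, with an SD larger than the mean. The log2 fold change was 0.93 (SE 1.05) over 7 libraries and -1.11 (SE 0.64) without replicate 7. In bulk RNA, fewer cells of a type and less RNA per cell cannot be told apart.

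Mzb1, which encodes the chaperone of immunoglobulin heavy chains, was set apart in the same library. It was at 3.36, 3.65, 1.90 and 2.96 CPM in the Ddx41+/+ libraries and at 2.29, 15.96 and 2.35 CPM in Ddx41+/- replicates 6, 7 and 8. Replicate 7 was 4.37-fold above the highest other library and did not overlap with it, whereas replicates 6 and 8 were inside the Ddx41+/+ range. The log2 fold change of 1.19 (SE 0.78) became -0.36 (SE 0.31) without replicate 7. Jchain and Mzb1 did not keep a fixed proportion across mice, as the ratio of their CPM per kilobase of exon ran from 5.07 in Ddx41+/+ replicate 1 to 17.6 in Ddx41+/+ replicate 3 and was 10.5 in replicate 7. In Ddx41+/+ replicate 2, where Jchain was the second highest, this ratio was 16.9.

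Fcmr and Ms4a1, the surface proteins of mature B cells, were nearly absent outside replicate 7. Fcmr had 15, 4, 10 and 4 counts in Ddx41+/+ and 3, 139 and 12 counts in Ddx41+/- libraries. At 4.12 CPM (95% Poisson interval 3.47 to 4.87) it was 11.4-fold above the highest other library, Ddx41+/+ replicate 1 at 0.363 CPM (0.203 to 0.598), the highest such ratio among all genes tested. Ms4a1 had 1, 14, 11 and 6 counts in Ddx41+/+ and 3, 52 and 8 counts in Ddx41+/- libraries, and 1.54 CPM (1.15 to 2.02) in replicate 7 was 4.26-fold above Ddx41+/+ replicate 2 at 0.362 CPM (0.198 to 0.608). The intervals cover counting error only, and for both genes those of replicate 7 were clear of all others. The log2 fold change of Fcmr turned from 2.71 (SE 1.10) to -0.34 (SE 0.98) without replicate 7, and that of Ms4a1 from 1.39 (SE 0.96) to -0.77 (SE 1.09).

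**Figure D1:**
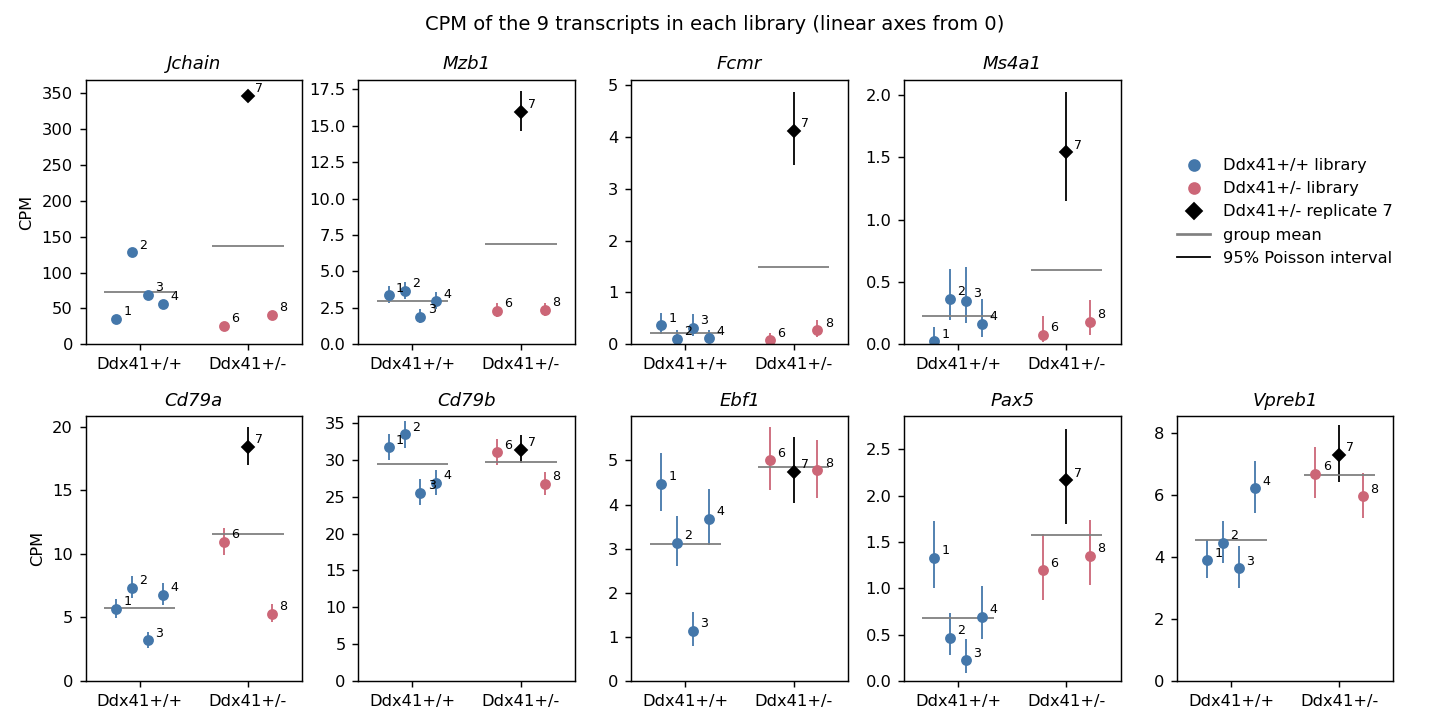
CPM of the 9 transcripts in each library, with replicate numbers beside the points, linear axes from 0, group means as grey lines and 95% Poisson intervals (counting error only) as bars. In the upper row the black diamond of Ddx41+/- replicate 7 stands clear of the other 6 libraries, while in the lower row it is highest for Cd79a (1.69-fold above the next library), Pax5 (1.60-fold) and Vpreb1 (1.09-fold) and lies among the others for Cd79b and Ebf1.

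The CD79 pair was divided, although both chains are needed for the receptor to reach the surface. Cd79b was nearly level, at 31.7, 33.4, 25.6 and 26.9 CPM in Ddx41+/+ and 31.0, 31.4 and 26.7 CPM in Ddx41+/- libraries, with a log2 fold change of 0.014 (SE 0.11), and the groups overlapped fully. Cd79a was at 5.68, 7.32, 3.19 and 6.80 CPM in Ddx41+/+ and at 10.9, 18.4 and 5.30 CPM in Ddx41+/- replicates 6 to 8. Replicate 7 was 1.69-fold above replicate 6, which was itself above each Ddx41+/+ library, and replicate 8 lay among the latter. Per kilobase of exon, Cd79a stood at 0.123 to 0.248 of Cd79b in the Ddx41+/+ libraries and at 0.347, 0.577 and 0.195 of it in replicates 6, 7 and 8. The log2 fold change of Cd79a was 1.00 (SE 0.43), and 0.49 (SE 0.35) without replicate 7.

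Ebf1, Pax5 and Vpreb1, the transcripts of early B-cell commitment, did not follow the pattern of Jchain and Fcmr. Ebf1 was at 4.47, 3.13, 1.14 and 3.68 CPM in Ddx41+/+ and at 5.0, 4.75 and 4.78 CPM in Ddx41+/- libraries. It was the only transcript of the 9 without overlap between the genotypes in either direction. Among all genes tested, 4.85% had Ddx41+/- above without overlap and 5.21% had it below. For Ebf1, replicate 7 was the lowest of the 3 Ddx41+/- libraries. Its log2 fold change of 0.63 (SE 0.33) stayed at 0.65 (SE 0.39) without replicate 7. Pax5 was at 1.33, 0.466, 0.221 and 0.691 CPM in Ddx41+/+ and 1.19, 2.17 and 1.35 CPM in Ddx41+/- libraries, and Ddx41+/+ replicate 1 overlapped with the latter. Vpreb1 was at 3.89, 4.45, 3.63 and 6.22 CPM in Ddx41+/+ and 6.68, 7.30 and 5.95 CPM in Ddx41+/- libraries, with Ddx41+/+ replicate 4 above replicate 8. In these transcripts replicate 7 was at most 1.60-fold above the next library, and the log2 fold changes without it remained positive, at 0.89 (SE 0.60) for Pax5 and 0.47 (SE 0.24) for Vpreb1.

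Ddx41+/+ replicate 3 was low for most of the 9. It had the lowest level of 6 of the 9 transcripts (Mzb1, Cd79a, Cd79b, Ebf1, Pax5 and Vpreb1), as of 18.0% of all genes tested, with 36 counts of Ebf1 and 7 of Pax5. Without it, the log2 fold change of Ebf1 was 0.36 and that of Pax5 was 0.91, both still above 0.

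Across the 9 transcripts, 0 passed the test between the genotypes (edgeR quasi-likelihood test, Benjamini-Hochberg adjusted p from 0.365 for Vpreb1 to 0.98 for Cd79b), where 0.217% of the 13340 genes tested did. DESeq2 also called 0, of the 8 to which it gave an adjusted p, where it called 1.04% of all genes. An unadjusted p under 0.05 was given by edgeR to 3 (Fcmr, Pax5 and Vpreb1), against 10.6% of all genes. All 9 fitted fold changes were above 0 with replicate 7 and 4 of 9 (Cd79a, Ebf1, Pax5 and Vpreb1) without it. The median log2 fold change moved from 1.00 to -0.028, while that of all genes was -0.0048 and -0.0061. Without replicate 7, edgeR called 0 of the 9 and gave an unadjusted p under 0.05 to 0, against 0.103% and 7.31% of all genes.

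**Figure D2:**
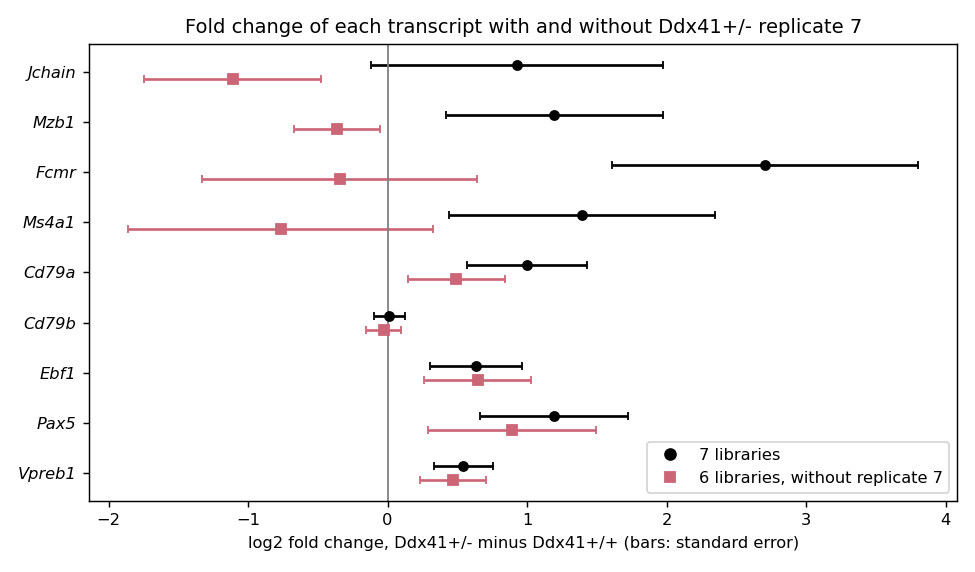
Log2 fold change (Ddx41+/- minus Ddx41+/+) with its standard error for each transcript, over 7 libraries (black circles) and over 6 without Ddx41+/- replicate 7 (red squares). Jchain, Mzb1, Fcmr and Ms4a1 move from above 0 to below it, Cd79b lies at about 0 in both fits, and Cd79a, Ebf1, Pax5 and Vpreb1 stay above 0.

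Library by library, 7 of the 9 transcripts were highest in replicate 7, as were 19.3% of all genes tested. In 4 (Jchain, Mzb1, Fcmr and Ms4a1) replicate 7 was at least 2-fold above every other library, as in 0.555% of all genes. The share of all genes set apart to this degree was between 0.03% and 0.157% in each of the other 6 libraries, so replicate 7 had more of them than any other. Of the 4 transcripts set apart, Jchain was nearest to the threshold of 2-fold, at 2.70-fold, and Cd79a was the nearest below it, at 1.69-fold. Summed over the 9, replicate 7 had 432 CPM against 83.2 to 181 CPM in the others, and Jchain alone made up 80.2% of that sum. The 4 transcripts set apart added to 368 CPM in replicate 7 and 28.4 to 132 CPM elsewhere, while the other 5 added to 64.0 CPM and 33.7 to 54.8 CPM.

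Per kilobase of exon, a scale on which genes can be compared, the order of levels was also different in replicate 7. Over the other 6 libraries the median was 20.2 CPM per kilobase for Cd79b and 19.3 for Jchain, followed by Vpreb1 at 4.34, Cd79a at 4.28 and Mzb1 at 2.18. Ebf1 (0.418), Fcmr (0.11), Pax5 (0.106) and Ms4a1 (0.028) were lowest. In replicate 7 Jchain reached 138 CPM per kilobase, Mzb1 (13.1) and Cd79a (12.7) passed Vpreb1 (6.09), and Fcmr (2.38) passed Ebf1 (0.487). Ms4a1, at 0.249, was next to Pax5, at 0.245.

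Other genes of the lineage were taken from 5 lists, 72 of whose genes outside the 9 were tested. The lists were written from general knowledge of B-cell biology, but with earlier results of these libraries known. Their counts and shares are therefore a description and carry no independent evidence. Sums over a list mostly follow its most abundant genes. The list of immunoglobulin constant-region genes gave 0 of the 72. Of the 72, 1 passed the test, against the 0.217% of all genes, and edgeR gave 16 an unadjusted p under 0.05, against 10.6%. In all, 30 (41.7%) were highest in replicate 7, against 19.3% of all genes. In replicate 7, 8 (11.1%) were at least 2-fold above every other library, and 0 were so in any other library. The gene that passed was Blnk, which encodes the adaptor that links the B-cell receptor to its downstream enzymes. It was at 4.96, 4.81, 4.87 and 5.25 CPM in Ddx41+/+ and 8.51, 11.5 and 8.27 CPM in Ddx41+/- libraries. The groups did not overlap, and the rise was not confined to replicate 7 (log2 fold change 0.92, SE 0.17, adjusted p = 0.0401, edgeR quasi-likelihood test with Benjamini-Hochberg adjustment). Without replicate 7 the fold change was 0.75 and the adjusted p 0.197, and leaving out any other single library also raised the adjusted p above 0.05.

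Plasma cell genes were the list most often highest in replicate 7, with 16 of 20 (80.0%, against 19.3% of all genes). In 4 of them replicate 7 was at least 2-fold above every other library, as in 0.555% of all genes. Between the genotypes 0 of 20 passed the test, and edgeR gave 8 an unadjusted p under 0.05, against 10.6% of all genes. These 8 did not share a direction, as they included Tmem176b, which was lower in Ddx41+/- (log2 fold change -0.31). Irf4, a transcription factor needed to form plasma cells, was at 2.47, 2.59, 1.45 and 2.29 CPM in Ddx41+/+ and 1.75, 19.7 and 2.35 CPM in Ddx41+/- libraries. Replicate 7 was 7.60-fold above the next library, and the log2 fold change of 1.83 turned to -0.11 without it. Prdm1, which encodes the plasma cell regulator BLIMP-1, was at 4.54 CPM in replicate 7 and 0.508 to 1.35 CPM in the others, and Derl3, of protein disposal from the endoplasmic reticulum, at 6.79 and 0.948 to 2.12 CPM. Sdc1, whose product CD138 marks plasma cells, was less far apart at 29.4 against 10.5 to 17.8 CPM, as was Tnfrsf17, the receptor BCMA, at 0.979 against 0.228 to 0.525 CPM. Xbp1, a secretory regulator that was abundant in all libraries, was at 233 against 157 to 188 CPM. The list summed to 1427 CPM in replicate 7, 1094 to 1205 CPM in Ddx41+/+ libraries and 1172 and 1154 CPM in replicates 6 and 8, and its median log2 fold change was 0.30 with replicate 7 and 0.016 without it.

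Mature B cell genes were mixed. Of 17 tested, 0 passed the test, against 0.217% of all genes, and 6 (35.3%, against 19.3% of all genes) were highest in replicate 7. In 2 (11.8%, against 0.555% of all genes) replicate 7 was at least 2-fold above every other library. These 2 were Fcrla, an Fc receptor-like protein of B cells, at 5.46 against 0.58 to 1.52 CPM, and Fcer2a, which encodes CD23, at 1.04 against 0.0553 to 0.505 CPM. Cr2, the complement receptor CD21, was at 0.237 against 0 to 0.155 CPM. The list summed to 281 CPM in replicate 7, 266 and 245 CPM in replicates 6 and 8 and 238 to 272 CPM in Ddx41+/+ libraries. Cd37, its most abundant gene, was at 110.7 CPM in replicate 7 and at a mean of 112.7 CPM in Ddx41+/+ libraries. The median log2 fold change of the list was 0.028, and -0.16 without replicate 7.

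Early B progenitor genes did not share a direction in replicate 7. Of 20 tested, Blnk passed the test and 6 were highest in that library. Pou2af1, which encodes an octamer coactivator used from early B cells to plasma cells, was at 22.2 against 3.10 to 6.83 CPM, and Ikzf3 (Aiolos) at 6.11 against 0.0484 to 0.912 CPM. Igll1, which encodes the lambda5 partner of VpreB, was at 7.59 CPM in replicate 7, within the 5.18 to 14.6 CPM of the others, and Rag1, of antigen-receptor recombination, was at 4.12 against 1.67 to 3.68 CPM. Its partner Rag2 was lowest in replicate 7, at 2.08 against 3.33 to 4.06 CPM, as was Arpp21, at 1.13 against 3.96 to 6.61 CPM.

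**Figure D3:**
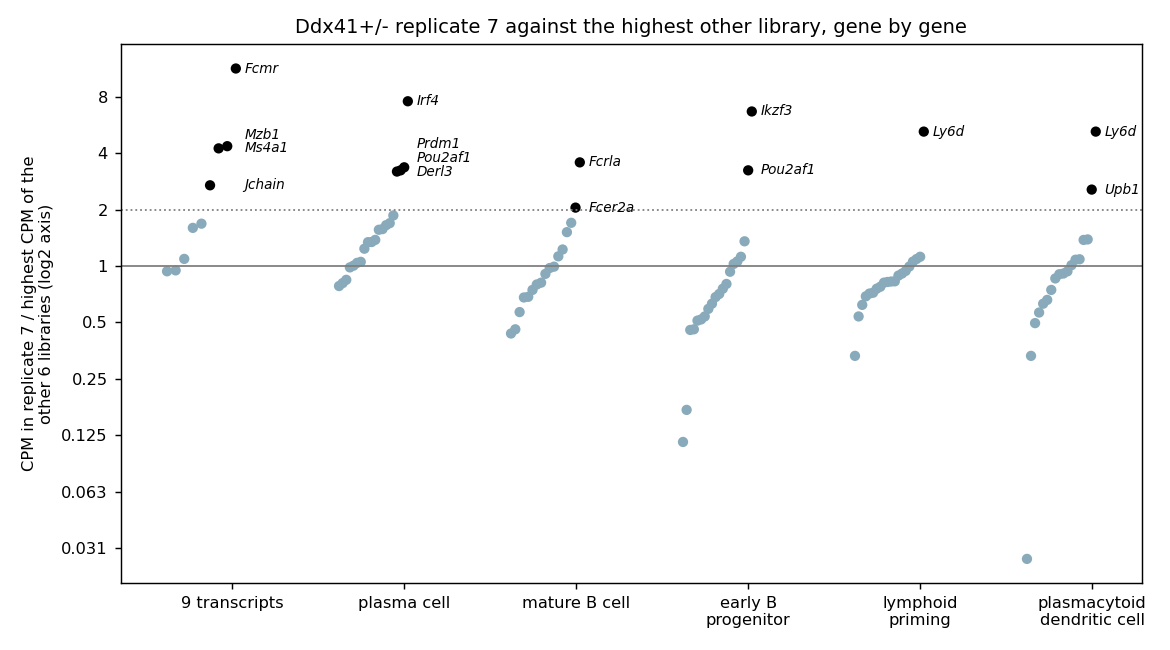
CPM in Ddx41+/- replicate 7 divided by the highest CPM of the other 6 libraries (log2 axis) for each tested gene, grouped by list, with names given from 2-fold up (dotted line). A gene above 1 is highest in replicate 7, as 19.3% of all genes are. Of the plasma cell genes 16 of 20 lie above 1, of the early B progenitor genes 6 of 20 and of the lymphoid priming genes 4 of 20, and Ly6d and Pou2af1 appear under each of their lists.

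Genes of lymphoid priming were close to the share of all genes in how often they were highest or lowest in replicate 7. Of 20 tested, 0 passed the test, 4 were highest and 4 lowest in replicate 7, where 19.3% and 21.9% of all genes were. The list summed to 2296 CPM there, 2446 and 2299 CPM in replicates 6 and 8 and 2376 to 2512 CPM in Ddx41+/+ libraries, so replicates 7 and 8 were alike in it. Dntt, which encodes the terminal transferase of lymphoid progenitors, was at 183, 190, 195 and 150 CPM in Ddx41+/+ and 177, 110 and 204 CPM in Ddx41+/- libraries, lowest in replicate 7. Flt3, the cytokine receptor of lymphoid-primed progenitors, was at 262, 264, 253 and 222 CPM in Ddx41+/+ and 244, 164 and 184 CPM in Ddx41+/- libraries, with replicate 7 again the lowest. Il7r, the receptor on which mouse B-cell development depends, was within the range of the others at 4.60 CPM. Ly6d, whose product marks lymphoid progenitors set on the B lineage and which plasmacytoid dendritic cells also express, went the other way, at 14.6 CPM in replicate 7 against 1.60 to 2.80 CPM.

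**Figure D4:**
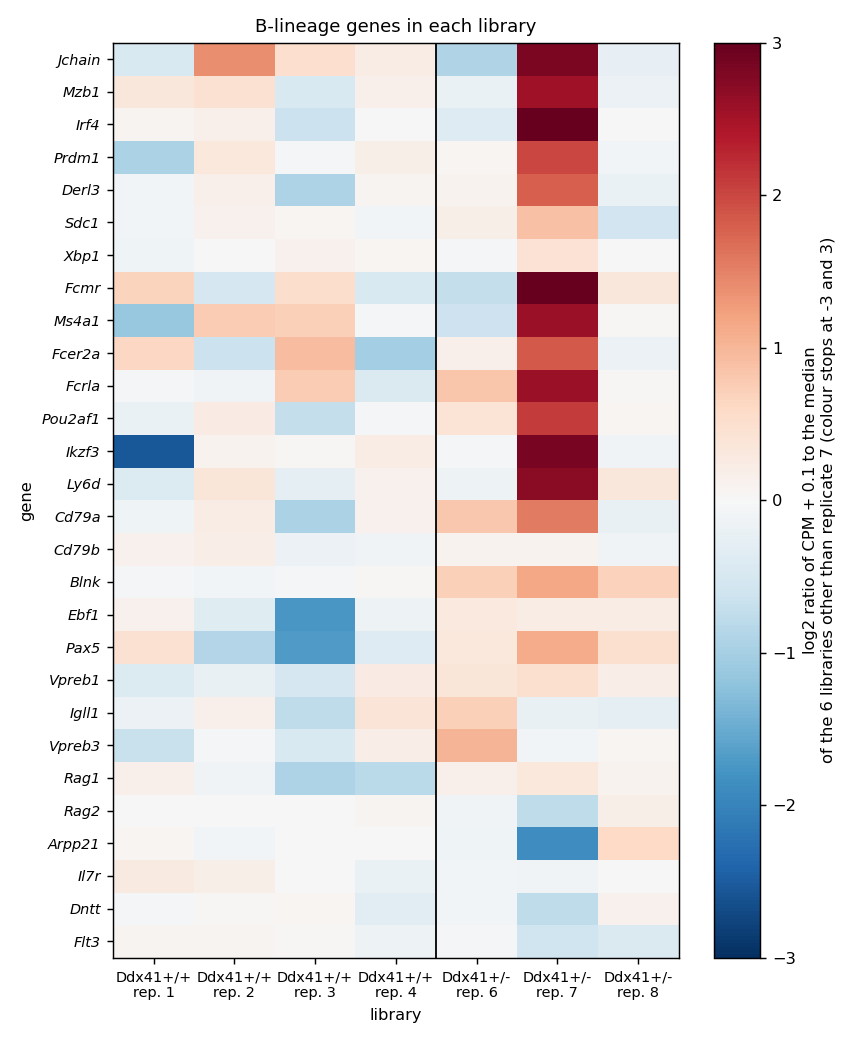
Log2 ratio of CPM + 0.1 to the median of the 6 libraries other than Ddx41+/- replicate 7, for B-lineage genes (rows, plasma cell genes first and lymphoid progenitor genes last) in each library (columns, the line divides the genotypes). The column of replicate 7 is red in the upper rows and blue for Rag2, Arpp21, Dntt and Flt3, while Blnk is red in all 3 Ddx41+/- libraries and Ddx41+/+ replicate 3 is blue for Ebf1 and Pax5.

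Markers of other cell types were read from 6 further lists, also chosen with earlier results known, 96 of whose genes were tested. Of these, 22 (22.9%, against 19.3% of all genes) were highest in replicate 7 and 3 (Lepr, Ly6d and Upb1) were at least 2-fold above every other library there, as 0.555% of all genes were. The 18 tested genes of plasmacytoid dendritic cells, which share a secretory program with plasma cells, included 7 that were highest in replicate 7. The list summed to 733 CPM there, 721 and 620 CPM in replicates 6 and 8 and 654 to 684 CPM in Ddx41+/+ libraries. Irf8 alone was at 375 CPM in replicate 7. The defining markers of these cells were low in every library and within the range of the others in replicate 7. Siglech was at 0.564 against 0.442 to 1.14 CPM, Cox6a2 at 1.07 against 0.686 to 1.24 CPM and Klk1, too low to be tested, at 0 against 0 to 0.0676 CPM. In the same list Ly6d was 5.23-fold and Upb1 2.56-fold above the highest other library, and 2 genes were lowest in replicate 7. Of the T and NK cell genes 1 of 13 (7.69%), of the neutrophil genes 3 of 18 (16.7%) and of the macrophage genes 8 of 19 (42.1%) were highest in replicate 7. The shares of the macrophage and plasmacytoid dendritic cell lists (42.1% and 38.9%) were thus near the 41.7% of the B-lineage lists. Of the macrophage genes, 0 were at least 2-fold above every other library in replicate 7. Macrophage genes summed to 1069 CPM there, 1009 and 896 CPM in replicates 6 and 8 and 746 to 993 CPM in Ddx41+/+ libraries. Ly6c2 alone was at 546.8 CPM in replicate 7. Neutrophil genes summed to 1819 to 2846 CPM in Ddx41+/- and 1128 to 1673 CPM in Ddx41+/+ libraries, and 1 of them, the granule protease Mmp9, passed the test (log2 fold change 1.57, from 5.62 ± 1.56 CPM over the 4 Ddx41+/+ libraries to 16.6 ± 4.14 CPM over the 3 others, SD). The part of these cell types, and of depth, in the values of replicate 7 was not tested.

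The genes whose levels followed those of the 9 transcripts most closely were sought over all genes, as a description. The mean of their centred log2 CPM was 1.58 in replicate 7 and -0.61 to -0.07 in the other 6 libraries. Over the 7 libraries, the highest Pearson correlations with it among 11241 genes of at least 1 CPM were those of Irf4 (r = 0.99), Phf8 (0.99), Serf2 (0.99), Ly6d (0.98) and St6gal1 (0.98), followed by Txndc5, Fhdc1, Ppig, Pou2af1 and Lin7c. St6gal1, the sialyltransferase of B-cell glycoproteins, was at 14.5 CPM in replicate 7 and 4.23 to 5.36 CPM elsewhere. With 7 points of which 1 stands apart, these values mostly order genes by their level in replicate 7. Over the 6 libraries without it, the 10 closest genes, led by Fancc (0.98), shared 0 genes with the first 10.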

How the data were processed

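RNA-seq of LSK cells was analysed in 4 Ddx41+/+ and 3 Ddx41+/- libraries, grouped by the genotype in the labels. The authors deposited raw counts per gene symbol. Per the submitters' processing notes, HISAT2 2.0.5, featureCounts 1.5.2 and the mm10 build were used. The labels name a stranded mRNA kit and the study's methods an unstranded one, and the counting of strand and of multi-mapped reads is not stated. All sample columns were used (0 unused).

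Counts were filtered with filterByExpr, which left 13340 genes, scaled by the trimmed mean of M values (TMM) and compared between genotypes in edgeR 4.0.16 by a robust quasi-likelihood fit. Benjamini-Hochberg adjustment covered these genes, and an adjusted p under 0.05 was called. CPM used TMM-scaled library sizes, and log2 CPM a prior count of 2. CPM per kilobase used the merged exons of GENCODE M21. Poisson intervals (95%) were exact. The fit was checked on simulated counts with a common dispersion and 2-fold changes in all Ddx41+/- libraries. That setting does not cover genes set apart in a single library. Counts of all 21 pairs of libraries differed by more than sampling noise (chi-square per gene at least 13.7). P-values measure the spread between these libraries.

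The 9 transcripts and the gene lists were chosen with earlier results of these data known. Named genes were the 9, Ddx41, the defining markers, called genes and most abundant genes of each list, and the 10 genes most correlated with the 9. Genes at least 2-fold higher in replicate 7 than in every other library, and others such as Xbp1, Dntt and Rag2, were named after their values were seen. Alternatives were 3 other scalings, DESeq2 1.42.0, no filter on low counts and leaving out each library. A gene of the lists is not reported here.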

Additional observations from a re-analysis of the deposited data

How the results depend on the processing

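None of the 9 transcripts passed the test in any of the 12 alternatives, and 7 of 9 were highest in Ddx41+/- replicate 7 under every scaling tried. Without that replicate the log2 fold change turned negative for Jchain (-1.11), Mzb1 (-0.36), Ms4a1 (-0.77) and Fcmr (-0.34), and the highest values, at 1.42, 1.61, 1.93 and 3.28, came without Ddx41+/- replicate 6. Those of Cd79a (0.49 to 1.35), Ebf1 (0.36 to 0.86), Pax5 (0.89 to 1.75) and Vpreb1 (0.45 to 0.73) stayed positive in all 12. Cd79b, close to 0 throughout, turned to -0.0031 with library totals, and to -0.047, -0.027, -0.019 and -0.028 without Ddx41+/+ replicates 3 and 4 and Ddx41+/- replicates 6 and 7, with a highest value of 0.085. Ms4a1 was too low to be tested in 2 of the alternatives.

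Over all genes, 29 calls became 15 with library totals, 147 with DESeq2, 91 without a filter and 7 to 41 when single libraries were left out. The single B-lineage list gene called became 0 with library totals, 4 with DESeq2 (Blnk, Creld2, Tmem176b and Tnfrsf13b), 3 without a filter and 0 to 1 with single libraries left out, where the 1 was Tmem176b or Flt3. Blnk kept its direction in all 12, with adjusted p from 0.000622 (DESeq2) to 0.197. Of the other cell type lists, 1 call became 3 with DESeq2, 2 without a filter and 1 to 2 with single libraries left out. The causes were not tested.

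No paired analysis was possible because the genotypes share no replicate numbers. Depth limits Fcmr, Ms4a1 and Pax5, which had as few as 3, 1 and 7 counts in a library.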

Other observations

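Values of Ddx41+/- replicate 6 are given here with no test. It was the highest library for 12 of the 72 tested genes of the B-lineage lists (16.7%), for 24 of the 96 genes of the other cell type lists (25%), of which 12 of 18 were mature neutrophil genes (66.7%), and for 8.94% of all genes. Of the 20 early B progenitor genes, 7 were highest in replicate 6 and 6 in replicate 7. Their sum was 776 and 806 CPM in these libraries and 832 CPM in Ddx41+/+ replicate 3. Cd24a alone made up 473.4, 570.5 and 538.5 CPM of these sums, so they say little about the other genes of the list. Vpreb3, a pre-B cell gene, was at 4.75 CPM in replicate 6 against 1.43 to 2.65 CPM in the other libraries. Igll1 was at 14.6 CPM, next to 11.7 CPM in Ddx41+/+ replicate 4. In the same library Jchain was at 26.0 CPM, its lowest value, and Mzb1, Fcmr and Ms4a1 were at or below the level of most Ddx41+/+ libraries.

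Of the 74 genes that were at least 2-fold higher in replicate 7 than in every other library, 62 were in neither the 9 transcripts nor the B-lineage lists. The lists do not cover every gene of B cells, as St6gal1 is among the 62, and many of the 62 were low, such as Nrcam at 0.831 CPM in replicate 7. Among the highest ratios of the 62 were Gpr55 (8.30-fold, 2.52 CPM), Chst1 (6.47-fold, 11.2 CPM), Cacna1h (5.45-fold) and Spon1 (4.58-fold). Cd38, at 4.18 against at most 1.76 CPM, and Cd40, at 0.771 against at most 0.362 CPM, were also among them.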
